A study of Mus musculus with 6 samples.

Results

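The 42 genes described here encode proteins of DNA replication and mitosis, among them the proliferation marker Mki67, the MCM helicase subunits and the mitotic kinases. They were picked by gene symbol from a list of cell cycle genes, and each of the 42 was found once among the 55450 genes of the count table. By role they divide into 4 regulators of the entry into S phase, 15 genes of DNA replication and nucleotide supply (the S phase group), 22 genes of mitosis, which include cyclin A2, topoisomerase II alpha and Ki-67 (the mitotic group), and Stmn1. Polyadenylated RNA had been sequenced from CD8 T cells of mouse lymph nodes, sorted for absence of Ly6C and CXCR3 so as to keep naive cells. There were 3 libraries of WT mice (C57BL/6) and 3 of CD103KO mice, which carry the Itgae-/- genotype and so lack the integrin alpha E chain. The sources used here give no age, no treatment and no number of animals behind a library. The p-values therefore measure only the spread between these libraries, which may in part be technical.

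A resting T cell keeps the cell cycle genes low. Activating E2F factors switch replication genes on late in G1, the MCM2-7 complex is loaded on origins as the replicative helicase, and cyclin B with CDK1 then drives mitosis. In quiescent cells the DREAM complex holds both sets down, through E2F sites at replication genes and through the cell cycle genes homology region, or CHR, at mitotic genes, where the factor NF-Y binds nearby. Naive CD8 T cells stay largely outside the cycle until they meet antigen.

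The promoters of the 2 main groups are shown first because the S phase and mitotic genes are described apart below. RefSeq windows (GRCm38.p6) of 300 bases, 250 before to 50 after a transcription start, matched 35 of the 42 members with 38 windows. Ccne2, Mcm4, Gins2, Ccna2, Aurkb, Tpx2 and Stmn1 had none. Below are the 250 bases before the start, 5′ to 3′ on the strand of the gene, with every match of 3 motifs in capitals. The motifs, searched on both strands, are the CHR (TTTGAA or TTCGAA), the NF-Y box (CCAAT) and the E2F site (TTTCGCGC, TTTGGCGC, TTTCCCGC or TTTGCCGC). The first 3 belong to mitotic genes and the last pair to subunits of the MCM helicase.
Bub1b (chr2:118597961-118598210, plus strand): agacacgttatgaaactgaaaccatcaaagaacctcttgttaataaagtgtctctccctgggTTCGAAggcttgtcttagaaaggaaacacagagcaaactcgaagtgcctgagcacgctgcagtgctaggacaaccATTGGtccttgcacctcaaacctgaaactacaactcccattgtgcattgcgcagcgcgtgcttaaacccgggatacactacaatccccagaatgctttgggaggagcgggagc
Mki67 (chr7:135716380-135716629, minus strand): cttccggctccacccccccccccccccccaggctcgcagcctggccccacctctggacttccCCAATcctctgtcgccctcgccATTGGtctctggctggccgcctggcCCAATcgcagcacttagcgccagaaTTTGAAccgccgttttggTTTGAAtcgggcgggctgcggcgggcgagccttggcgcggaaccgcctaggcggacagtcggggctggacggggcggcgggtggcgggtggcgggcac
Top2a (chr11:99024190-99024439, minus strand): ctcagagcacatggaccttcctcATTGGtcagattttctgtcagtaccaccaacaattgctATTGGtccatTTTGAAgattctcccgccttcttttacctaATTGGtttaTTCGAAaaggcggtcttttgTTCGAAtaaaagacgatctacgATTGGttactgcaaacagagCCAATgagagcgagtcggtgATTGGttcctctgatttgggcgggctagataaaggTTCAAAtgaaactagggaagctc
Mcm5 (chr8:75109259-75109508, plus strand): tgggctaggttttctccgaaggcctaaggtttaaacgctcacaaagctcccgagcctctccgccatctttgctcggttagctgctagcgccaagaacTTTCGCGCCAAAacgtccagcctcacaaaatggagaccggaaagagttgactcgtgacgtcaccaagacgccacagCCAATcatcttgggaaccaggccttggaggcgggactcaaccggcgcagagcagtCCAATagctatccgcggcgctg
Mcm6 (chr1:128359706-128359955, minus strand): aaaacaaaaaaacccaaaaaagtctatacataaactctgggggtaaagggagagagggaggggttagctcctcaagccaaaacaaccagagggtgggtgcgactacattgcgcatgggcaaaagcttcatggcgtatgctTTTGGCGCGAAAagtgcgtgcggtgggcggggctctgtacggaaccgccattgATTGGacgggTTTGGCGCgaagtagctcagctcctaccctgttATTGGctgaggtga

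In this stretch Mki67 had 2 CHR matches and 3 NF-Y boxes, Top2a had 4 and 6, and Bub1b had 1 of each. Mcm5 and Mcm6 had NF-Y boxes and E2F sites but no CHR. Each of the long capital runs of Mcm5 and Mcm6 holds 2 overlapping E2F matches, 1 per strand. Over the whole windows a CHR match was present in 15 of 19 windows of mitotic members (78.9%) and in 3 of 15 of S phase members (20%), against 19.2% of all 32851 windows in the table. The S phase windows with a CHR match belong to Cdc45, Mcm2 and Mcm7, so the MCM genes were not all without one. An E2F match was present in 6 of 15 S phase windows (40%) and in 1 of 19 mitotic windows (5.26%, Cdk1), against 2.26% of all windows. The NF-Y box was in 17 of 19 mitotic and 12 of 15 S phase windows, against 37.4% of all. Within the mitotic group a CHR was in 5 of the 6 members with a window and an unadjusted p under 0.05 (all but Cenpe), and in 10 of the 13 others. A match is a description of the letters and not evidence of binding.

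**Figure D1:**
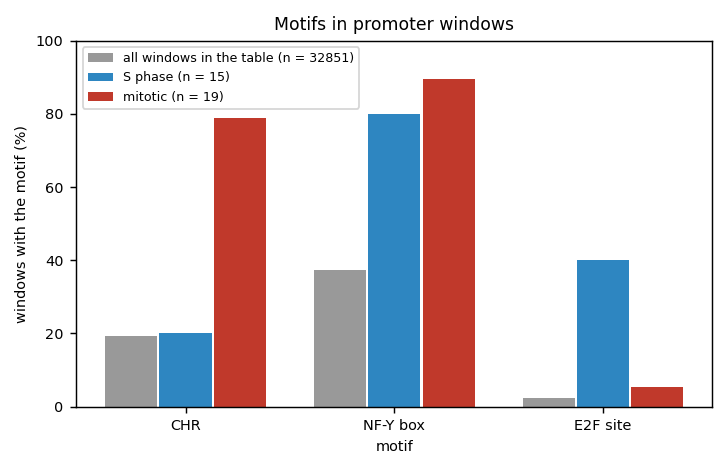
Share of RefSeq promoter windows (percent, y axis) that hold at least 1 match to each of 3 motifs (x axis), for all 32851 windows, the 15 windows of S phase members and the 19 of mitotic members. The CHR bar is at 78.9% for mitotic members and 20% for S phase members, and the E2F bars are in the reverse order at 5.26% and 40%.

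Libraries held 68292475 to 94347034 expected counts, and a single count equalled 0.0105 to 0.0147 CPM (counts per 1000000 counts of a library scaled by its TMM factor), the unit of all levels below. All 42 members passed the filter on low counts, the lowest count of a member in a library being 39. Itgae was at 491, 495 and 459.9 CPM in WT replicates 1, 2 and 3 and at 67.9, 67.9 and 61.1 CPM in CD103KO replicates 1, 2 and 3, which matches the labels in every library. Cd8a was at 1438 to 1506 CPM throughout and Cd4 at 0.0734 to 0.775 CPM. Xist was at 66.9 and 79.7 CPM in WT replicates 1 and 2, where the Y-linked Ddx3y was at 0 counts. Elsewhere Xist was at no more than 2 counts. There Ddx3y was at 56.2 CPM in WT replicate 3 and at 47.8 to 54.5 CPM in CD103KO. By these genes WT replicates 1 and 2 read as female and all other libraries as male, so sex was partly confounded with genotype. Results were therefore also fitted with a term for Xist reads, which leaves WT replicate 3 as the WT library that informs the difference.

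Pcna and the MCM genes stood far above the mitotic genes in level per length. Per kilobase of annotated exon, Pcna, the sliding clamp of the replicative polymerases, had the highest level of the 42 in WT (76.0 CPM per kb). The helicase subunits Mcm2 to Mcm7 followed at 14.4 to 29.6 CPM per kb. Other S phase members were far lower, down to 0.384 CPM per kb for thymidine kinase 1 (Tk1), with a median of 5.29 CPM per kb over the group. The mitotic group had a median of 0.814 CPM per kb and ran from 0.113 for the checkpoint kinase Ttk to 3.54 for Top2a, which untangles DNA. Stmn1, which destabilises microtubules, was at 10.8 CPM per kb, and the 4 G1/S regulators ran from 0.262 (Ccne2) to 4.26 (Ccne1).

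With all 6 libraries, most cell cycle genes had slightly higher levels in CD103KO, and no single member passed edgeR's test. The median difference was larger in the mitotic than in the S phase group. Of the 42 members, 40 had a positive log2 fold change (CD103KO over WT), a sign that 49.0% of all tested genes had. The median log2 fold change was 0.25 over the 42, 0.13 over the S phase group, 0.32 over the mitotic group and 0.19 over the G1/S regulators, beside -0.003 over all 13470 genes tested. EdgeR's quasi-likelihood test called 0 of the 42 at an adjusted p of 0.05 over all genes, where 0.223% of genes were called. At an unadjusted p under 0.05 it gave 13 members, all higher in CD103KO, where 4.53% of all tested genes were higher and 4.2% lower at that threshold. They were 9 of 22 mitotic members, 2 of 15 S phase members (Uhrf1 and Rrm2), 1 of 4 G1/S regulators (Ccne1) and Stmn1. DESeq2 called 2 members (Aurkb and Mki67) among its 0.572% of genes, and edgeR without a filter on low counts called the same 2 among 0.5%. DESeq2 run on the genes that pass the edgeR filter called Bub1b as well, among 1.02% of genes. In 12 members every CD103KO library lay above every WT library, which 6.82% of tested genes did, and in 0 members the reverse held, against 7.36% of tested genes.

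**Figure D2:**
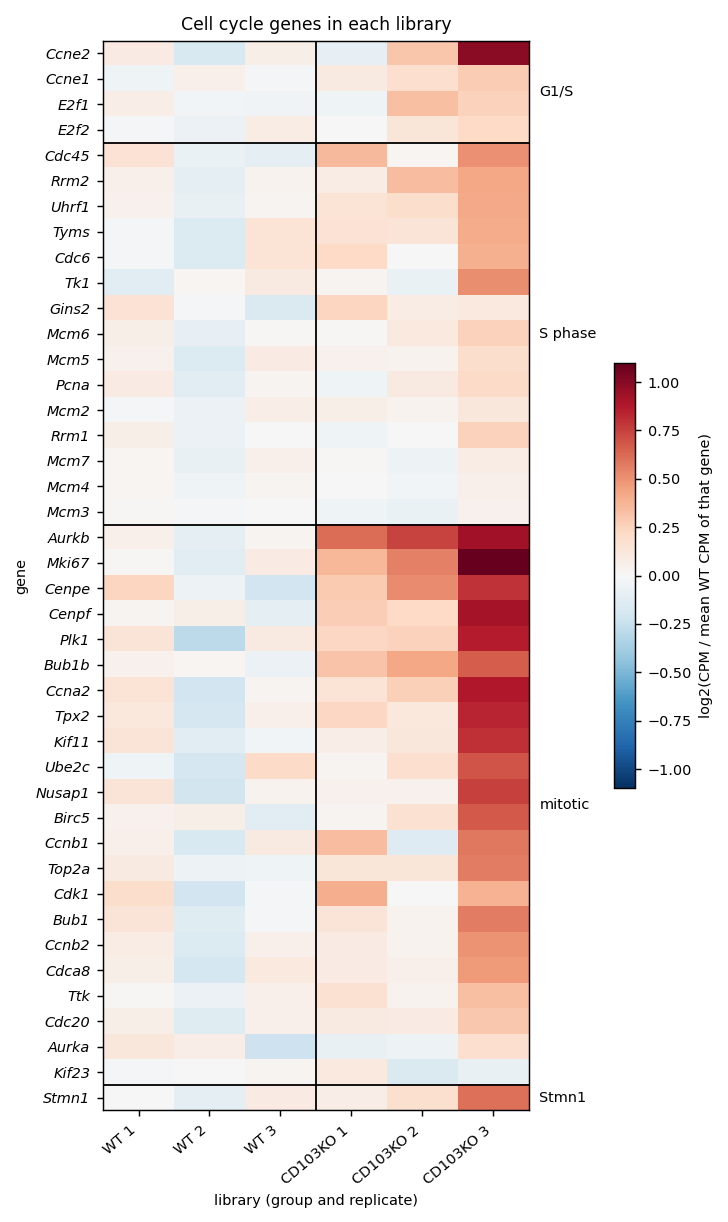
Each of the 42 members (rows, grouped by role and ordered by fold change) in each of the 6 libraries (columns), coloured by log2 of its CPM over its mean WT CPM. The column of CD103KO replicate 3 is red in nearly all rows and darkest in the mitotic group, and the MCM rows are pale throughout.

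Among the G1/S regulators, cyclin E1 (Ccne1), which activates CDK2 before S phase, was at 10.99, 11.8 and 11.2 CPM in WT replicates 1, 2 and 3 and at 12.2, 12.9 and 13.7 CPM in CD103KO replicates 1, 2 and 3. The groups did not overlap, and edgeR gave a log2 fold change of 0.19 ± 0.07 (SE), at an adjusted p of 0.497. Cyclin E2 (Ccne2) was at 0.975, 0.815 and 0.956 CPM in WT and 0.858, 1.13 and 1.82 CPM in CD103KO, so that only CD103KO replicate 3 stood clear of the rest. The transcription factor genes E2f1 and E2f2 had log2 fold changes of 0.19 and 0.12 with overlapping groups.

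The helicase genes stayed within a narrow band. Mcm2 was at 99.2, 95.3 and 105 CPM in WT and 104, 103 and 109 CPM in CD103KO. Mcm3 was at 92.8, 90.95 and 91.8 CPM in WT against 88.8, 87.5 and 94.7 CPM in CD103KO. Mcm4 was at 108, 103 and 108 CPM in WT against 106, 104 and 110.5 CPM in CD103KO. The groups overlapped for these 3 subunits, which had edgeR log2 fold changes of 0.08 (SE 0.05), -0.02 (SE 0.04) and 0.01 (SE 0.04). Mcm5 was at 76.03, 66.3 and 78.1 CPM in WT and 75.8, 75.7 and 84.1 CPM in CD103KO. Mcm6 was at 133, 119.5 and 128 CPM in WT against 128, 137 and 151 CPM in CD103KO. Mcm7 was at 81.3, 75.3 and 83.1 CPM in WT against 80.5, 76.8 and 84.3 CPM in CD103KO. Their log2 fold changes were 0.10 (SE 0.07), 0.13 (SE 0.07) and 0.01 (SE 0.05), and CD103KO replicate 3 was the highest library for all 6 subunits. With the term for Xist reads Mcm4 and Mcm7 turned negative (-0.02 and -0.04), Mcm2 and Mcm5 came to 0.003 and 0.008, and the median over the 6 subunits went from 0.044 to -0.009. No direction is therefore given for the helicase genes other than Mcm6, which was at 0.11 with that term and had overlapping groups. Pcna was at 194, 168 and 186 CPM in WT and 176, 196 and 211 CPM in CD103KO, with overlapping groups, and edgeR gave a log2 fold change of 0.09 ± 0.07 (SE), at an adjusted p of 0.757.

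The S phase genes outside the helicase and the clamp showed somewhat larger differences, with a median log2 fold change of 0.23 over 8 genes. Uhrf1, which recruits the maintenance methyltransferase to replicated DNA, was at 19.02, 17.3 and 18.8 CPM in WT and 20.4, 21.01 and 24.5 CPM in CD103KO. Its groups did not overlap, and edgeR gave a log2 fold change of 0.26 ± 0.08 (SE), at an adjusted p of 0.434. Rrm2, the cycle-regulated subunit of ribonucleotide reductase, was at 8.78, 7.86 and 8.65 CPM in WT and 8.92, 10.7 and 11.3 CPM in CD103KO. No CD103KO library was below a WT library, although CD103KO replicate 1 was close to WT replicate 1. The edgeR log2 fold change was 0.29 ± 0.10 (SE), at an adjusted p of 0.461. The partner subunit Rrm1 had a log2 fold change of 0.08 with overlapping groups. Thymidylate synthase (Tyms, 0.24), thymidine kinase (Tk1, 0.18), the helicase activator Cdc45 (0.31), its partner Gins2 (0.15) and the loading factor Cdc6 (0.22) had positive log2 fold changes with overlapping groups.

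In the mitotic group the largest difference was that of Aurkb, the kinase of the chromosomal passenger complex. It was at 1.603, 1.44 and 1.57 CPM in WT and 2.36, 2.57 and 2.92 CPM in CD103KO, from 120 to 138 counts against 173 to 221. All 3 CD103KO libraries were high, and the edgeR log2 fold change was 0.77 ± 0.14 (SE), at an adjusted p of 0.123, beside an adjusted p of 0.0135 with DESeq2. Mki67, whose protein coats mitotic chromosomes and is the usual marker of dividing cells, was at 10.6, 9.71 and 11.2 CPM in WT and 13.5, 15.4 and 22.6 CPM in CD103KO. The groups did not overlap, and CD103KO replicate 3 was at 2.15 times the WT mean where CD103KO replicates 1 and 2 together averaged 1.38 times. Its edgeR log2 fold change was 0.71 ± 0.17 (SE), at an adjusted p of 0.257, beside an adjusted p of 0.00079 with DESeq2. Bub1b, the spindle checkpoint protein BubR1, was at 4.42, 4.33 and 4.09 CPM in WT and 5.33, 5.75 and 6.799 CPM in CD103KO. It also had no overlap, with an edgeR log2 fold change of 0.48 ± 0.11 (SE), at an adjusted p of 0.228, beside 0.0529 with DESeq2. Cenpe, the kinetochore motor, was at 2.52, 2.06 and 1.85 CPM in WT and 2.62, 3.07 and 3.72 CPM in CD103KO, and CD103KO replicate 1 was only slightly above WT replicate 1. For Cenpe the edgeR log2 fold change was 0.55 ± 0.17 (SE), at an adjusted p of 0.434.

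A further 5 mitotic members had an unadjusted p under 0.05. For all of them CD103KO replicate 3 was the high library. Cenpf, a kinetochore protein gene, was at 2.06, 2.1 and 1.87 CPM in WT and 2.42, 2.33 and 3.78 CPM in CD103KO. Top2a was at 34.2, 30.6 and 30.8 CPM in WT against 35.02, 34.95 and 47.01 CPM in CD103KO. Ccna2, cyclin A2 of S phase and early mitosis, was at 4.995, 3.896 and 4.604 CPM in WT against 4.99, 5.39 and 8.29 CPM in CD103KO, and its groups overlapped, since CD103KO replicate 1 was below WT replicate 1. Plk1, the kinase that drives mitotic entry, was at 2.12, 1.58 and 2.06 CPM in WT against 2.25, 2.29 and 3.49 CPM in CD103KO. Tpx2, which activates Aurora A on the spindle, was at 4.501, 3.67 and 4.32 CPM in WT against 4.86, 4.51 and 7.43 CPM in CD103KO. In the last pair CD103KO replicates 1 and 2 were just above the highest WT library. The log2 fold changes were 0.50 (SE 0.20), 0.29 (SE 0.11), 0.47 (SE 0.19), 0.48 (SE 0.21) and 0.43 (SE 0.19) in the order given, with edgeR adjusted p-values of 0.514 to 0.557. Stmn1 had the same shape at 20.7, 19.3 and 22.1 CPM in WT and 21.8, 23.3 and 31.4 CPM in CD103KO, and its groups overlapped. The edgeR log2 fold change was 0.30 ± 0.13 (SE), at an adjusted p of 0.5498.

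The other 13 mitotic members had unadjusted p-values of at least 0.05. Cdk1, the mitotic kinase itself, was at 2.79, 2.11 and 2.43 CPM in WT and 3.23, 2.45 and 3.19 CPM in CD103KO, and here CD103KO replicates 1 and 3 were high and replicate 2 was within the WT range. Its partners Ccnb1 and Ccnb2 had log2 fold changes of 0.30 and 0.22. Cdc20 and Ube2c, which serve the anaphase-promoting complex, had 0.16 and 0.34, and only Cdc20 among the 13 had groups that did not overlap. The passenger complex genes Birc5 (0.32) and Cdca8 (0.22), the kinesin Kif11 (0.38), the spindle protein gene Nusap1 (0.33), and the checkpoint kinases Bub1 (0.27) and Ttk (0.19) were positive. Aurka, the spindle pole kinase, was at 0.02, and Kif23, the kinesin of the central spindle, was the 1 negative mitotic member (-0.04). Kif23 was at 18.03, 18.3 and 18.7 CPM in WT and 19.7, 16.4 and 17.3 CPM in CD103KO, and CD103KO replicate 3 was below every WT library.

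Much of the difference rested on CD103KO replicate 3. That library was the highest of the 6 for 38 of the 42 members, where it was the highest for 18.9% of all tested genes. WT replicate 2 was the lowest for 30 of 42, against 18.7% of all tested genes. Without CD103KO replicate 3, the log2 fold change was smaller for 40 of 42 members, and 35 remained positive. The mitotic median was then 0.12 and the S phase median 0.05. The 8 S phase genes outside the helicase and the clamp then had a median of 0.16, and the 4 G1/S regulators 0.13. In that fit the mitotic median was thus the higher only with Pcna and the MCM genes counted in the S phase group. The members with an unadjusted p under 0.05 were then 4, namely Mki67, Aurkb, Bub1b and Cenpe, where 2.82% of all tested genes were higher at that threshold. Their log2 fold changes without that library were 0.46, 0.68, 0.37 and 0.40. The term for Xist reads left the same 4 under 0.05, against 4.16% of tested genes. In that fit WT replicate 3 is the only WT library that informs the difference. The mitotic median was 0.32 with the term, as without it, and 21 of the 22 mitotic members were positive. With that term Aurkb, Mki67, Cenpe and Bub1b had log2 fold changes of 0.73, 0.61, 0.76 and 0.54, with larger standard errors, and the S phase median was 0.08. With only libraries without Xist reads 3 members were under 0.05 (3.66% of tested genes), and 6 were without WT replicate 2 (3.44%). Leaving out CD103KO replicate 1 gave 21, against 7.21% of tested genes. CD103KO replicate 3 held 76044311 counts and had a TMM factor of 0.994. The cause of its higher levels was not tested.

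**Figure D3:**
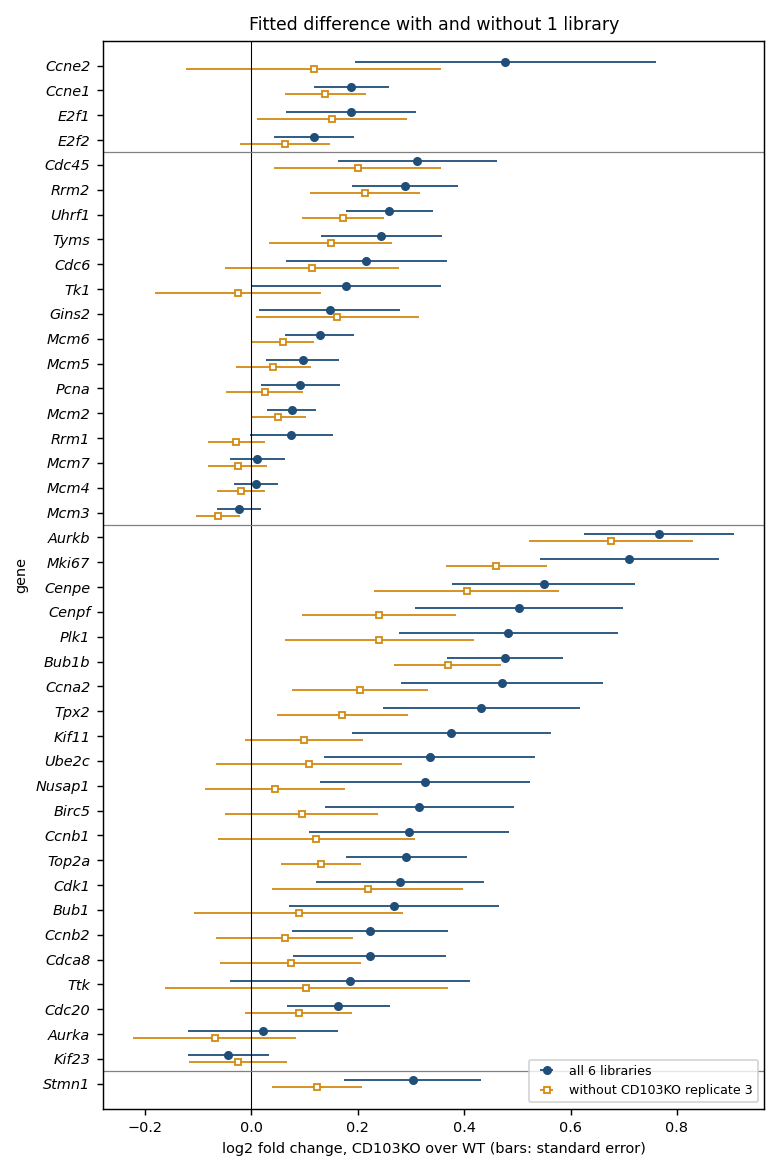
Log2 fold change of each member (x axis, CD103KO over WT, bars are standard errors) with all 6 libraries (filled circles) and without CD103KO replicate 3 (open squares), by role. Open squares lie left of the circles for 40 of 42 members, and Aurkb, Mki67, Cenpe and Bub1b stay farthest to the right without that library.

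The S phase and mitotic groups separated most in CD103KO replicate 3. Summed over the 15 S phase members, the level was 887, 812 and 880 CPM in WT replicates 1, 2 and 3 and 861, 884 and 968 CPM in CD103KO replicates 1, 2 and 3, so the groups overlapped. Their means were 860 ± 41.6 and 905 ± 56.5 CPM (SD, n = 3 each), a ratio of 1.05. Summed over the 22 mitotic members, the level was 122, 109 and 116 CPM in WT and 130, 129 and 173 CPM in CD103KO, without overlap. The means were 116 ± 6.25 and 144 ± 25.4 CPM (SD, n = 3 each), a ratio of 1.245, or 1.12 over CD103KO replicates 1 and 2 alone. The mitotic sum equalled 13.7%, 13.5% and 13.2% of the S phase sum in WT and 15.1%, 14.5% and 17.9% in CD103KO. These percentages mostly set the mitotic genes against Pcna and the MCM genes. Gene by gene, CD103KO replicate 3 stood at a median of 1.36 times the mean of the other CD103KO libraries over the mitotic group (0.957 for Kif23 to 1.64 for Nusap1) and 1.14 times over the S phase group (0.964 for Gins2 to 1.45 for Tk1). No p is given for these sums, because the genes were chosen with earlier results of these libraries known. In bulk RNA, more cycling cells and more RNA of these genes per cell cannot be told apart.

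**Figure D4:**
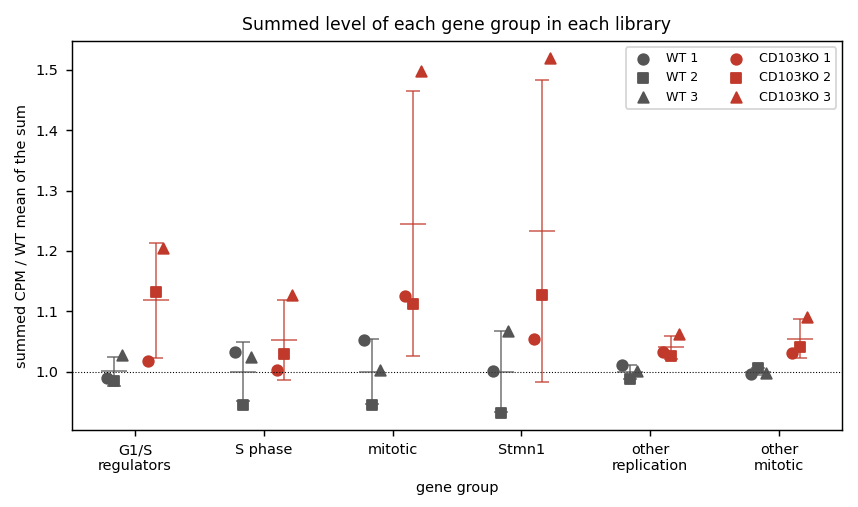
Summed CPM of each gene group divided by its WT mean (y axis), for each library (points, shape gives the replicate), with the group mean and SD (bars). For the mitotic group CD103KO replicate 3 is at 1.499, CD103KO replicates 1 and 2 average 1.12, and the S phase points of the 2 groups overlap.

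Other genes of the same pathways, from lists that hold none of the 42, showed a like order in their medians. Levels are mean ± SD, n = 3 in each group. Their sums differed little in size, but every CD103KO library was above every WT library. For other replication genes the sums ran from 1115 to 1141 CPM in WT and from 1158 to 1199 CPM in CD103KO, a ratio of means of 1.04. For other mitotic genes they ran from 793 to 801 CPM in WT and from 820 to 868 CPM in CD103KO, a ratio of 1.05. Of 39 other replication genes, 29 were positive with a median log2 fold change of 0.04, and 3 were under an unadjusted p of 0.05, all higher, a share near that of all tested genes (4.53% higher and 4.2% lower). Those of smallest p were Dnmt1, the maintenance methyltransferase (162 ± 4.51 CPM in WT against 178 ± 6.38 CPM in CD103KO), and Pole, the leading-strand polymerase (12.96 ± 0.668 CPM in WT against 14.9 ± 1.09 CPM in CD103KO). Of 53 other mitotic genes, 45 were positive with a median of 0.22, and 12 were higher and 1 lower under that threshold. Kif20b, a cytokinesis kinesin, was at 8.47 ± 0.436 CPM in WT against 10.5 ± 0.71 CPM in CD103KO. Securin (Pttg1), the anaphase inhibitor, went the other way at 19.6 ± 1.57 CPM in WT against 16.6 ± 0.705 CPM in CD103KO, with every CD103KO library below every WT library (log2 fold change -0.25). Without CD103KO replicate 3 these 2 medians were 0.04 and 0.07. Of the other mitotic genes, 3 were then higher and 1 lower under that threshold, where 2.82% of all tested genes were higher. Without WT replicate 2, 4 were higher and 2 lower, where 3.44% of all tested genes were higher. E2f8, a repressive E2F that is itself induced in cycling cells, was at 1.01 ± 0.0867 CPM in WT against 1.57 ± 0.328 CPM in CD103KO. With all 6 libraries E2f8 was the 1 gene of 13 other E2F and DREAM genes under that threshold (list median -0.01). Rbbp4, a histone-binding DREAM subunit, was at 244 ± 11.8 CPM in WT against 256 ± 8.88 CPM in CD103KO. EdgeR called 0 genes in each of these 3 lists, as did DESeq2.

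The CDK inhibitors, pocket proteins and G1 cyclins gave few genes to compare. Of 8 tested CDK inhibitors and pocket proteins, 3 were positive with a median of -0.01, and 0 were under an unadjusted p of 0.05. Cdkn1b, the inhibitor p27 of resting T cells, was at 121 ± 2.68 CPM in WT against 116 ± 0.576 CPM in CD103KO, with every CD103KO library below every WT library. Rbl1, the pocket protein p107, was at 62.8 ± 3.57 CPM in WT against 65.8 ± 1.49 CPM in CD103KO. Of the 6 G1 cyclins and CDKs, 2 were positive with a median of -0.03 and 0 were under that threshold. Cyclin D2 (Ccnd2), a partner of Cdk4 and Cdk6, was at 780.1 ± 90.5 CPM in WT against 875 ± 108 CPM in CD103KO, with overlapping groups and a log2 fold change of 0.17. Cdk4 was at 130.1 ± 2.64 CPM in WT against 126 ± 4.92 CPM in CD103KO. EdgeR and DESeq2 called 0 genes in either list. With so few genes, 0 under that threshold is near the share of all tested genes, and no difference from the other lists was tested.

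Aurkb, the member of largest fold change, is also the 1 that lies close to the mutated locus. It is on chromosome 11 (GRCm38, 69045647 to 69051664, plus strand), 4.04 Mb from Itgae, where genes differed between the genotypes far more often than elsewhere. Of 161 other tested genes within 5 Mb of Itgae, 24.8% had an unadjusted p under 0.05 and 9 were called, against 8.31% of genes on other chromosomes. Within 1 Mb of Aurkb the share was 21.2% of 52 genes, with 0 called. The other 4 members on chromosome 11 lie 25.8 to 44.7 Mb away (Cdc6, Top2a, Tk1 and Birc5), where 8.62% of genes beyond 20 Mb were under that threshold. Mki67, Bub1b and Cenpe are on chromosomes 7, 2 and 3. Without Aurkb, the 41 members had a median of 0.24 and 12 under an unadjusted p of 0.05. Haspin, a mitotic histone kinase gene in the span of Itgae on its opposite strand and not among the 42, was at 1.29, 1.04 and 1.13 CPM in WT and 0.4903, 0.499 and 0.529 CPM in CD103KO. It was thus lower in CD103KO, with an edgeR log2 fold change of -1.19 ± 0.20 (SE), at an adjusted p of 0.0992, beside 0.014 with DESeq2. The exons of Haspin and Itgae do not overlap. Haspin had only 34 to 100 counts in a library, and the strand setting of the counting is not given. Whether reads of Itgae RNA add to the counts of Haspin was not tested. The part of linkage to Itgae in the difference of Aurkb was not tested.

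**Figure D5:**
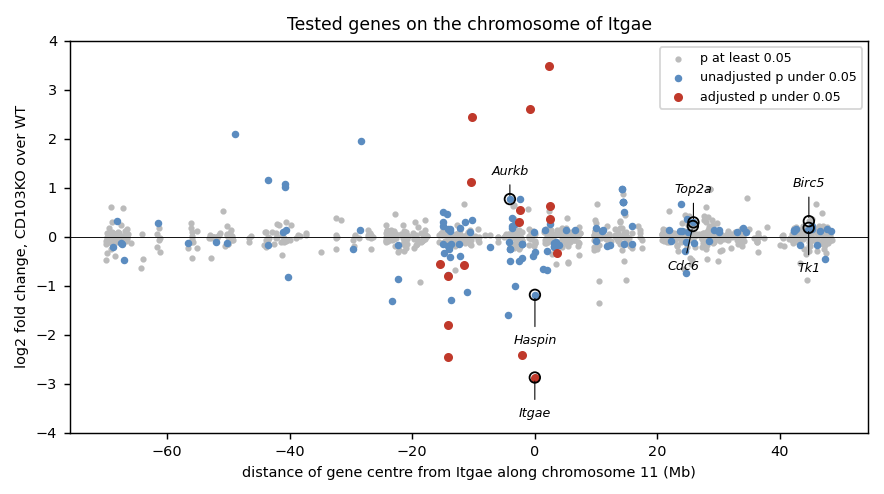
Log2 fold change (y axis) of tested genes on chromosome 11 by the distance of their centre from Itgae (x axis, Mb), coloured by test result. Aurkb, 4.04 Mb from Itgae by nearest ends, lies among many coloured points. Top2a, Cdc6, Birc5 and Tk1 lie farther to the right, where fewer points are coloured, and 5 genes beyond 4 on the y axis are not drawn.

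Markers of other cells in the sort moved with the cell cycle genes in part. All 13 B cell markers were positive (median log2 fold change 1.86), and in 10 of them every CD103KO library was above every WT library. CD103KO replicate 3 was highest for 11. EdgeR called 3. With the term for Xist reads it called 0, while all 13 remained positive with a median of 1.46. The summed level was 28.2 to 32.5 CPM in WT and 35.4 to 42.1 CPM in CD103KO, most of it from Cd79b (25.3 ± 2.097 CPM in WT against 25.5 ± 0.754 CPM in CD103KO, log2 fold change 0.01). Cd79a, a B cell receptor chain, was at 0.759 ± 0.0545 CPM in WT against 2.53 ± 0.493 CPM in CD103KO. The germinal centre and plasma cell list had 4 of 8 tested genes positive and sums of 85.4 to 89.9 and 81.9 to 88.4 CPM. All 5 tested erythroid and platelet markers were positive, with a median log2 fold change of 1.02 and sums of 33.0 to 50.1 and 57.5 to 93.1 CPM, but CD103KO replicate 3 was the lowest of its group and Pf4 was at 0 counts. CD4 and regulatory T cell markers had 6 of 7 positive (median 0.28, and 0.03 with the term for Xist reads), with sums of 19.2 to 20.4 and 23.1 to 24.5 CPM. Memory and effector CD8 markers, which mark cells that divide more than naive cells, had 11 of 16 positive with a median of 0.08 and sums of 697 to 812 and 801 to 833 CPM. Their direction turned with the libraries used. With the term for Xist reads 6 of 16 were positive with a median of -0.10, 3 were lower under an unadjusted p of 0.05, and edgeR called 1. Without CD103KO replicate 3 the median was -0.02 with 7 positive, and without WT replicate 3 it was 0.35. The 7 naive T cell genes were all negative (median log2 fold change -0.11, 3 under an unadjusted p of 0.05, 0 called by edgeR), with sums of 5206 to 5591 and 5054 to 5291 CPM, and CD103KO replicate 3 was lowest.
NK and innate-like genes had 2 of 6 positive (27.0 to 31.2 and 27.6 to 33.3 CPM), myeloid and dendritic genes 1 of 6 (4.75 to 7.56 and 4.90 to 5.95 CPM, Cd14 and Siglech at 0 counts), immature thymocyte genes 3 of 4 (426 to 454 and 443 to 460 CPM) and CD8 identity genes 8 of 10 (6954 to 7476 and 7066 to 7382 CPM). The part of such cells in the level of the cell cycle genes was not tested.

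Some members are less certain in their counts. Mcm7, Pcna, Rrm2, Uhrf1, Ccnb1, Mki67 and Stmn1 had values that are not whole, which RSEM gives where reads are shared between genes. Exons of Ccne2, Mcm7, Cdc45, Gins2, Tk1, Ccna2, Cdca8, Cdc20 and Nusap1 overlap an expressed gene on the opposite strand. The library kit keeps strand, but the sources used here do not give the strand setting of the counting.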

How the data were processed

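The study measured polyadenylated RNA in 3 WT and 3 CD103KO libraries. The submitters' processing notes name bcl2fastq 2.20, cutadapt 1.18, STAR 2.7.0f, RSEM and the builds GRCm38 and mm10. The sources used here give neither the RSEM version nor the annotation. The authors deposited expected counts per gene and library, not normalized, of which 6.48% were not whole. They were rounded here. All 55450 identifiers matched GENCODE M21, which gave coordinates and exon lengths.

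EdgeR 4.0.16 (R 4.3.3) was run with filterByExpr (minimum count 10), TMM and the quasi-likelihood F test on group, with Benjamini-Hochberg adjustment at 0.05 over 13470 genes. The standard error was taken as the log2 fold change divided by the root of F. In simulated counts for these 13470 genes the test recovered 28%, 64%, 82% and 94% of genes changed 1.25, 1.5, 2 and 4-fold. Of its 145 calls, 11 were of unchanged genes. The simulation held no difference in sex and no library that deviates from its group, so these shares may not hold for the real libraries. Pairs of libraries within a group were not duplicates (chi-square per degree of freedom 12.6 to 26.3).

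The members and lists were chosen with earlier results of these data known. Values are given for members with an unadjusted p under 0.05, the 2 of smallest p in each role, Mki67, Top2a, Pcna, Rrm2, Mcm2 to Mcm7, Cdk1 and Aurkb, the 2 of smallest p in each other list, Itgae and Haspin; markers are given by list. Named beside these, after their values were seen, were Kif23, Cd8a, Cd4, Cd79a and Cd79b. 1 marker is not reported here. Alternatives were RLE and upper-quartile factors, other filters, DESeq2 1.42.0, limma-voom (limma 3.58.1), a replicate block, a term for Xist reads (above 1 CPM), only libraries without them, and each library left out.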

Additional observations from a re-analysis of the deposited data

How the results depend on the processing

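The number of genes called was 30, and it was 112 with no filter on low counts, 128 with DESeq2, 137 with DESeq2 on the genes that pass the edgeR filter (an alternative chosen after seeing the data), 15 with a term for Xist reads, 13 with only libraries without Xist reads and 19 to 59 with each library left out. The number of cell cycle members called was 0, and it was 2 with no filter, 2 with DESeq2, 3 with DESeq2 on filtered genes and 0 with each library left out. The number of members under an unadjusted p of 0.05 was 13, and it was 4 with the term for Xist reads, 3 with only libraries without Xist reads and 4 to 21 with each library left out. The cause of these changes was not tested. Log2 fold changes of Mcm4 turned to -0.02 with the term for Xist reads and -0.02 with only libraries without Xist reads, and ran from -0.02 to 0.02 with each library left out. Those of Mcm7 were -0.04, -0.04 and -0.03 to 0.04. The S phase and mitotic medians ran from 0.05 to 0.16 and from 0.12 to 0.44 with each library left out. With the term for Xist reads they were 0.08 and 0.32, and with only libraries without Xist reads also 0.08 and 0.32, against 0.13 and 0.32 with all libraries and no such term.

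With the replicate number as a block, 24 genes and 0 members were called, 13 members were under an unadjusted p of 0.05, and the mitotic median was 0.29. Libraries of the same number did not deviate together (correlations of -0.28, -0.03 and 0.03 for numbers 1, 2 and 3). Libraries of different numbers ran from -0.25 to 0.26. The check gave no sign of pairing by number, but with 3 libraries per group, each set against its group mean, it cannot exclude pairing. The block changed no call of a named gene.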
